A study of Mus musculus with 2 samples.

Results

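B cells of the second deposited run were examined here: 466 barcodes that were selected on their measured UMIs, with at least 1 UMI each of *Cd79a* and *Ms4a1*, 0 UMIs of *Cd3e* and fewer than 5 UMIs of *C1qa* and *C1qb* together. They came from 20568 barcodes of that run and from 43965 barcodes in all. Of the 466, 465 belonged to the PEP-619WW library and 1 to the PEP-WT library. A UMI (unique molecular identifier) stands for a captured transcript, and a barcode for a droplet that held a cell.

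The study compared C57BL/6 mice with the wild-type *Ptpn22* gene (PEP-WT) and C57BL/6 mice made by CRISPR/Cas9 to carry the R619W change of the encoded phosphatase PEP on both alleles (PEP-619WW). Per the study's methods, all mice of both groups had received 1000000 PFU of LCMV-cl13 intravenously, the clone of lymphocytic choriomeningitis virus known for chronic infection. No library described as uninfected was analysed here. By the same methods, mice were 6 to 12 weeks old, spleens of 4 to 5 mice per genotype were pooled at day 8, and live CD45+ cells were sorted. For run 2 the infection rests on this description and was not checked here. Each genotype had 1 library in each of 2 deposited runs, called run 1 and run 2, and how these relate is not stated in the sources used here.

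B cells make antibody and present antigen. *Cd79a* and *Cd79b* encode the signaling chains that sit beside the surface antibody, and *Ms4a1* encodes CD20. In the spleen, resting follicular B cells recirculate and carry surface IgM, IgD and CD23, marginal zone B cells carry CD21 and face the blood, and activated B cells divide, switch to IgG or IgA and can become antibody-secreting plasma cells. During a virus infection, interferons raise a large set of antiviral genes in B cells as in other cells.

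The labels name liver, a human T cell line and tumor-infiltrating cells, while the protocol text of the same labels describes splenocytes, and the tissue of run 2 is not settled. Run 2 held 11029 barcodes with 55504449 UMIs for PEP-619WW and 9539 barcodes with 70500076 UMIs for PEP-WT, and run 1 held 8576 barcodes with 56745578 UMIs and 14821 barcodes with 77916082 UMIs. The 4 libraries shared 19 to 49 cell barcodes pairwise, and of the 465 members 1 barcode also occurred in PEP-WT of run 2, 0 in PEP-619WW of run 1 and 4 in PEP-WT of run 1. The study describes sex-matched mice, yet the libraries differed in genes tied to sex, between runs and between the genotypes of run 2. In the PEP-619WW library of run 2, 46.3% of all barcodes had a UMI of a Y-linked gene and 3 barcodes had a UMI of *Xist*, whereas in run 1 67.8% (PEP-619WW) and 70.3% (PEP-WT) of barcodes had *Xist* and 0 and 3 barcodes had a Y-linked UMI. In the PEP-WT library of run 2, 28.5% of barcodes had a Y-linked UMI, 31.1% had *Xist* and 283 barcodes had both. Run, tissue, sex, any difference in infection and the mice themselves cannot be told apart in what follows. With 1 pooled library per genotype and run there was no replicate and no test, the runs were not taken as replicates, and every interval below is an exact 95% interval. A count of 0 is instead given a limit of 3 counts, and both cover counting error only.

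Members made up 4.22% of the run 2 PEP-619WW barcodes (3.85 to 4.61%) and 0.0105% of the run 2 PEP-WT barcodes (0.000265 to 0.0584%). The same selection in run 1 took 2876 barcodes, or 33.5% (32.5 to 34.5%), of PEP-619WW and 6471 barcodes, or 43.7% (42.9 to 44.5%), of PEP-WT. The run 2 share of PEP-619WW lay far below both. Of 503 run 2 PEP-619WW barcodes with both B cell genes, 13 were left out for *Cd3e* and 25 for the complement genes *C1qa* and *C1qb*. Just inside the limits stood 27 members with 1 to 4 complement UMIs, beside 438 with 0, and 19 members with 1 UMI each of *Cd79a* and *Ms4a1*. Just outside stood 3 barcodes with 5 to 9 complement UMIs.

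The label of B cells fitted the markers that the selection had not used. *Cd79b* was found in 429 of the 465 PEP-619WW members, *Ighm*, the IgM heavy chain, in 459, and *Igkc*, the kappa light chain, in 445. The *Cd3e* barcodes named here and below are those with a UMI of *Cd3e* and without a UMI of *Cd79a* or *Ms4a1*. In those of the same library, which had a median of 3801 UMIs, *Ighm* was found in 40.3% and *Igkc* in 14.2%. *Pax5*, the B lineage transcription factor, was found in 57.6% of the 465 PEP-619WW members. All but 1 of the members had a UMI of a list of 15 other B cell genes. *Cd79b* stood at 1256 CPM (the summed UMIs of the gene per 1000000 summed UMIs of the barcodes) in run 2, 1218 CPM in run 1 PEP-619WW and 1272 CPM in run 1 PEP-WT. Its log2 ratio between the PEP-619WW libraries was 0.04 (-0.03 to 0.12). In the *Cd3e* barcodes, used here as a background for B cell genes, *Cd79b* was at 8.98 CPM in run 2. Leaving out barcodes with the gate genes can lower B cell RNA in this background, by an amount that was not tested.

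The members were shallow and varied widely. UMIs per member had a lowest value of 500, a median of 1811 and a highest value of 21291, and genes per member ran from 346 through a median of 907 to 4544. *Cd79a* counts had a median of 5 and a highest value of 19, and *Ms4a1* a median of 2 and a highest value of 12. *Ighm* ran from 0 through 7 to 30 UMIs, *Ighd* from 0 through 2 to 16 and *Igkc* from 0 through 15 to 61. The run 1 barcodes of the same selection were deeper, with medians of 3366 UMIs in PEP-619WW and 2696 UMIs in PEP-WT. Mitochondrial UMIs took a median of 3.56% in members and 3.27% and 3.02% in the run 1 libraries.

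Part of the members carried markers of macrophages. Of 11 macrophage and monocyte genes, 231 members had none, 189 had 1 or 2, and 45 members (9.68%) had 3 or more. The 45 had a median of 7092 UMIs, against 1655 and 1896 UMIs in the others, and held 89.2% of the UMIs of that list. *Lyz2*, the lysozyme of macrophages, reached 6621 CPM in them and 265 CPM in members with 1 or 2 markers. It is 1 of the 11 genes that made this split, so its order is fixed by the split and is given as a description. In the same order of 3 or more, 1 or 2, and 0 markers, the CD23 gene *Fcer2a* stood at 80.7, 319 and 378 CPM and *Ighd* at 403, 1176 and 1401 CPM. The single PEP-WT member had 964 UMIs, 1 UMI each of *Cd79a* and *Ms4a1*, and 7 UMIs over 4 macrophage genes. It is not used in the comparisons.

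**Figure D1:**
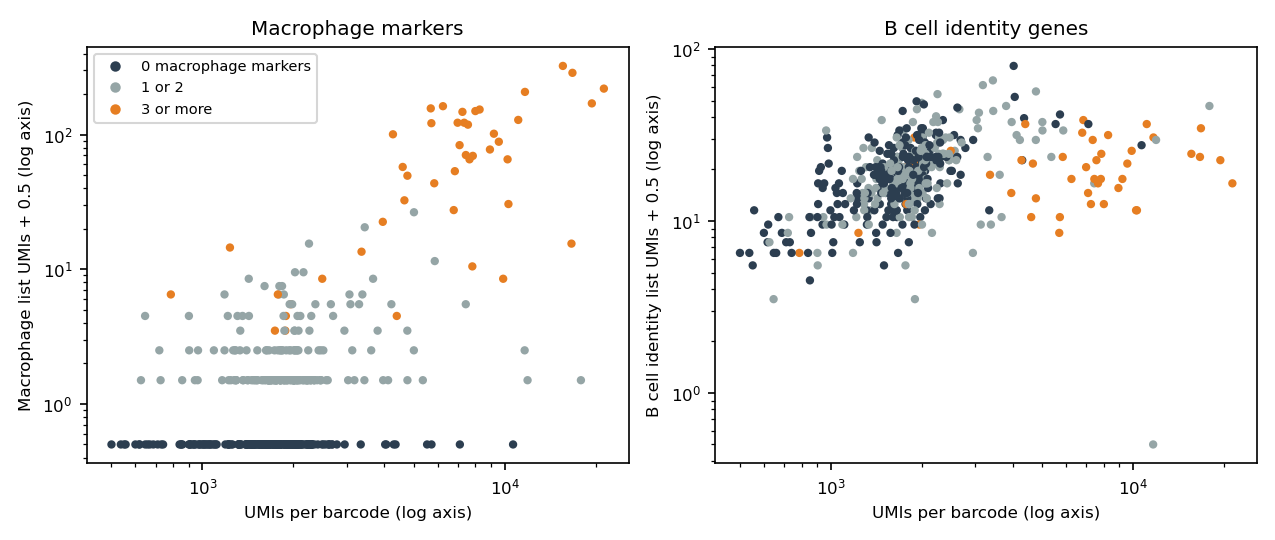
UMIs per barcode (x axis, log scale) of each of the 465 PEP-619WW members of run 2 against the summed UMIs plus 0.5 of the macrophage and monocyte list (left) and of the B cell identity list (right), both on log axes, with points colored by the number of macrophage markers detected. The 45 members with 3 or more macrophage markers had a median of 7092 UMIs, against 1811 UMIs over all members, though some of them lay below the latter.

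Because of these barcodes, each list of B cell function below is given for all members and again for single-lineage barcodes, those with fewer than 3 markers of each of the T cell, natural killer (NK) cell, macrophage, neutrophil and dendritic cell lists. That restriction, added after the data had been seen, left 403 members of run 2 (86.7%), 2531 barcodes of run 1 PEP-619WW and 6075 of run 1 PEP-WT.

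Genes were compared by summed UMIs, and a gene was called higher or lower when it differed at least 2-fold, the whole interval of its log2 ratio lay on 1 side of 0 and both sums together held at least 30 UMIs. Between run 2 and run 1 PEP-619WW B cells, 1415 of 10883 genes were higher (13.0% of those tested) and 706 were lower (6.49%). Against run 1 PEP-WT B cells, 1701 of 11561 genes (14.7%) were higher and 683 (5.91%) lower. These comparisons share the run 2 members. Against both, 1197 genes were higher and 519 lower, and 0 genes pointed in opposite directions. The run 1 genotypes, by the same rule, differed in 262 and 221 of 12129 genes. The split depended on the scaling. With library totals 66.7% of calls were higher and the median log2 ratio of all genes tested was 0.25, while with TMM factors (edgeR's trimmed mean scaling) 754 genes were higher and 1267 lower, 37.3% of calls were higher and the median was -0.13, a shift of 0.38. List medians below are read against that median of 0.25, and a log2 ratio between 0 and 0.38 changes sign with TMM factors. Those factors lower every log2 ratio by 0.38, so that a higher call less than 0.38 above the 2-fold limit is lost. All list counts below use library totals. In single-lineage barcodes 959 genes were higher (9.29%) and 613 lower (5.94%) of 10329, with a median of 0.23. In those that also had an *Ighd* UMI, 532 were higher (5.49%) and 409 lower (4.22%) of 9684, with a median of 0.16. Every list count below against run 1 PEP-619WW is to be read against these shares.

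Members expressed IgM and IgD and almost no switched heavy chain. Of 4778 heavy chain constant UMIs, *Ighm* held 74.6% (73.3 to 75.8%) and *Ighd* 25.3% (24.0 to 26.5%). *Ighg1*, *Ighg2b* and *Ighg2c* had 0 UMIs, *Ighg3* had 3 and *Igha* 5. In run 1 PEP-619WW B cells, *Ighg2c*, an IgG heavy chain of antiviral responses in this strain, held 49.98% of such UMIs, *Ighm* 22.7% and *Ighd* 2.21%. *Ighg2c* stood at 0 CPM in run 2, 10350 CPM in run 1 PEP-619WW and 5064 CPM in run 1 PEP-WT, at least 4031-fold lower in run 2 than in run 1 PEP-619WW when the limit of 3 counts over the summed members stands for 0. The same limit gave at least 1127-fold for *Ighg2b* and at least 249-fold for *Ighg1*. Of 11 tested immunoglobulin constant genes, 1 was higher and 7 lower, with the same counts in single-lineage barcodes. The near-identical IgG genes share reads, and their values are uncertain one by one.

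Single barcodes showed the same, once all were thinned to 1000 UMIs, which left out 41 members below that depth. Of 424 members, 92.0% had *Ighm* (89.0 to 94.4%), 64.9% had *Ighd* (60.1 to 69.4%) and 0.472% any *Ighg* gene (0.0572 to 1.69%). In run 1 PEP-619WW these shares were 87.8, 45.3 and 55.0%, and in run 1 PEP-WT 87.1, 48.4 and 39.1%. Barcodes with *Cd3e*, as a background, had *Ighm* in 12.9% (run 2), 23.8% and 21.2%, *Ighd* in 0.243% (run 2), 0.600% and 1.45%, and any *Ighg* in 0%, 38.7% and 28.4%. IgG RNA was thus read in many *Cd3e* barcodes of run 1 and in 0 of 1289 of run 2 before thinning, which by the limit of 3 counts allows a share of up to 0.233%. Without thinning, 82.2% of members had *Ighd* and 0.645% any *Ighg*, against 72.7% and 89.9% in run 1 PEP-619WW, where 89.6% of *Cd3e* barcodes also had any *Ighg*. The unthinned IgG share of run 1 was thus at the level of its background.

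Light chains held less kappa than in run 1. *Igkc* took 72.2% of 10489 light chain constant UMIs (71.3 to 73.0%), against 89.4% in run 1 PEP-619WW and 88.8% in run 1 PEP-WT. By barcode the difference was smaller: lambda UMIs exceeded kappa UMIs in 14.2% of members (10.98 to 17.8%) and in 11.5% (10.3 to 12.7%) and 12.01% of run 1 barcodes at 1000 UMIs, and these intervals overlapped. Without thinning the share was 13.3% in members (10.4 to 16.8%) and 8.97% in run 1 PEP-619WW (7.95 to 10.1%), and these intervals did not overlap. In run 1 PEP-WT it was 9.998% (9.28 to 10.8%), with an interval that overlapped that of members. At 1000 UMIs *Igkc* was found in 4.21% of *Cd3e* barcodes of run 2 and in 66.8% of those of run 1 PEP-619WW. No variable gene led the members. Among 87 members with a most counted *Ighv* gene, 49 genes were in use and the leading *Ighv3-6*, *Ighv1-80* and *Ighv1-82* had 5 members each (5.75%). Of 86 tested immunoglobulin variable genes, 0 were higher than in run 1 PEP-619WW and 47 lower, against 13.0% and 6.49% of all genes.

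**Figure D2:**
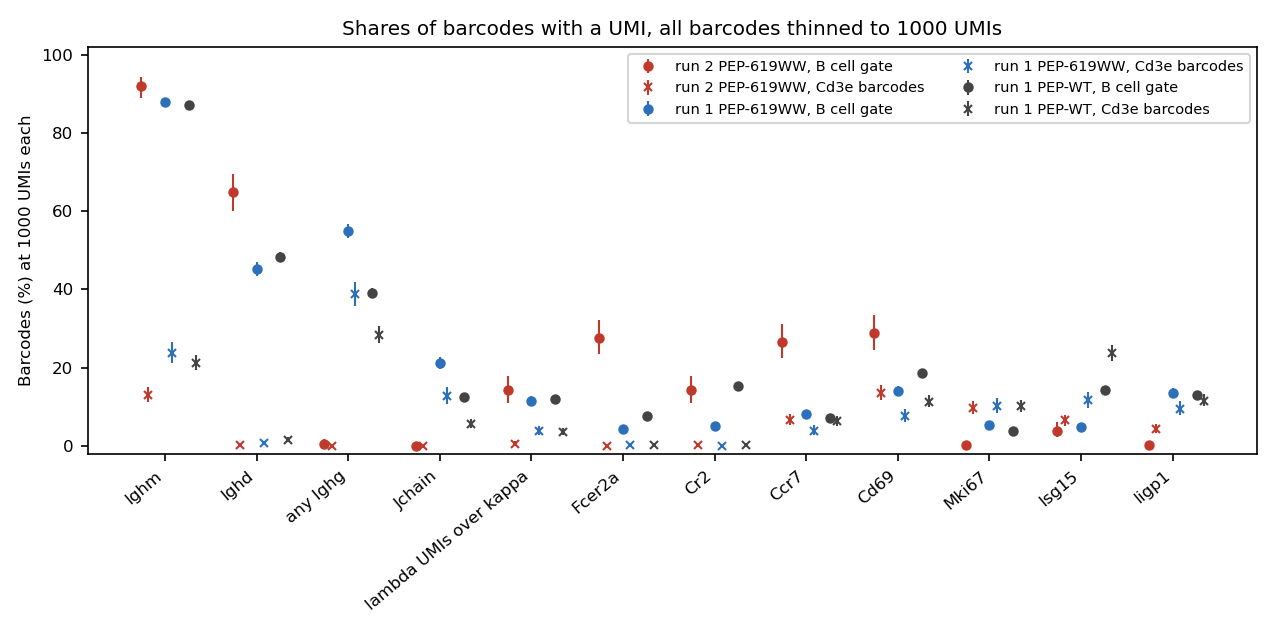
Share of barcodes (y axis, %) with a UMI of each gene or class after every barcode was thinned to 1000 UMIs, for gated B cells (circles) and *Cd3e* barcodes (crosses) of run 2 PEP-619WW, run 1 PEP-619WW and run 1 PEP-WT, with exact 95% binomial intervals. Any *Ighg* was found in 0.472% of run 2 B cells and in 55.0% and 39.1% of run 1 B cells, and *Fcer2a* in 27.6%, 4.30% and 7.51%.

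Follicular genes stood higher in run 2. Of 8 such genes, 5 were higher than in run 1 PEP-619WW and 0 lower, with a median log2 ratio of 1.06, and in single-lineage barcodes 7 were higher with a median of 1.39. *Fcer2a* (GRCm38 chr8:3681737-3694175), the low affinity IgE receptor CD23, stood at 271 CPM in run 2, 28.8 CPM in run 1 PEP-619WW and 57.0 CPM in run 1 PEP-WT. The run 2 interval of 242 to 303 CPM lay far above both, and the log2 ratio was 3.23 (3.02 to 3.44) against PEP-619WW and 2.25 (2.07 to 2.43) against PEP-WT. At 1000 UMIs it was found in 27.6% of members (23.4 to 32.1%), 4.30% and 7.51% of the run 1 barcodes, and in 0%, 0.1% and 0.181% of *Cd3e* barcodes. *Ccr7*, the chemokine receptor that guides lymphocytes into T cell zones, stood at 287, 60.02 and 53.6 CPM, a log2 ratio of 2.26 (2.07 to 2.44). In *Cd3e* barcodes *Ccr7* was at 99.6 CPM in run 2 and 20.9 CPM in run 1 PEP-619WW, where *Fcer2a* was at 0.345 and 0.476 CPM.

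*Ighd* (GRCm38 chr12:113406604-113416324), the IgD heavy chain, stood at 1033 CPM (976 to 1093), 457 CPM and 541 CPM, a log2 ratio of 1.18 (1.09 to 1.27). *Cd55*, which restrains complement, stood at 424, 195 and 175 CPM, and *Cxcr5*, the receptor for the follicular chemokine, at 95.9, 47.7 and 61.3 CPM. These 5 genes were the called ones, with *Cxcr5* at the limit of 2-fold. With TMM factors *Ighd*, *Cd55* and *Cxcr5* fell below that limit, while *Fcer2a* and *Ccr7* stayed above it. *Klf2* and *Foxp1*, transcription factors of resting B cells, had log2 ratios of 0.79 and 0.95 in all members and 1.12 and 1.21 in single-lineage barcodes, where both were called.

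Marginal zone genes gave no common direction. Of 7 tested, 3 were higher and 0 lower with a median of -0.05, and in single-lineage barcodes 1 of 6 was higher and 1 lower with a median of 0.23. Against run 1 PEP-WT 1 of 8 was higher and 4 lower, with a median of -0.99, and in single-lineage barcodes 0 were higher and 1 lower, with a median of -0.39. For single-lineage barcodes the share of all genes called against PEP-WT was not tabulated. *Cr2*, the complement receptor CD21, stood at 111 CPM in run 2, 48.4 CPM in run 1 PEP-619WW and 160 CPM in run 1 PEP-WT. The run 2 value thus lay between the run 1 genotypes, with log2 ratios of 1.2 (0.92 to 1.47) and -0.53. *Plac8* was lower against PEP-WT, at 800, 1488 and 1879 CPM, and in single-lineage barcodes it was lower against both, at 467, 1448 and 1802 CPM. *Cd9*, at 127, 31.9 and 38.4 CPM in all members, stood at 46.04 CPM in single-lineage members, where it was no longer called. It stood at 297 CPM in the other run 2 PEP-619WW barcodes.

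Genes of antibody secretion were lower in run 2. Of 11 such genes, 9 were lower and 0 higher, with a median log2 ratio of -2.85, and the counts were the same in single-lineage barcodes with a median of -2.96. *Jchain*, which joins IgM and IgA into polymers, had 1 UMI in all members (0.856 CPM) against 2934 and 1661 CPM in run 1, a log2 ratio of -11.74 (-17.05 to -9.27). *Mzb1*, a chaperone of antibody assembly, stood at 280 CPM in run 2, 2210 CPM in run 1 PEP-619WW and 1528 CPM in run 1 PEP-WT. *Xbp1*, the transcription factor of the secretory program, stood at 110, 421 and 241 CPM. *Slpi* stood at 76.2, 1666 and 899 CPM, and at 20.3 CPM in single-lineage members. Of its 89 UMIs in run 2, 88 lay in the cluster with macrophage genes described last. As with IgG, this RNA was also present in *Cd3e* barcodes of run 1, with *Jchain* at 326 CPM and *Mzb1* at 195 CPM there, and at 0 and 1.496 CPM in run 2.

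Germinal center genes were mixed. Of 10 tested, 2 were higher and 5 lower in all members (median -1.28), and 2 and 7 in single-lineage barcodes (median -1.59). Among single-lineage barcodes that also had an *Ighd* UMI, 2 of 9 were higher and 1 lower (median -0.24), against 5.49% and 4.22% of all genes tested there. *Mef2b*, a transcription factor of germinal center B cells, had 1 UMI against 29.0 and 33.5 CPM in run 1. *Bcl6*, the transcription factor of germinal centers that is also read in other cells, was higher, at 41.9, 17.5 and 19.6 CPM.

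Genes of cell division stood lower. Of 19 proliferation genes, 16 were lower and 0 higher with a median log2 ratio of -2.99, and in single-lineage barcodes 15 were lower with a median of -3.34. *Mki67*, a marker of cycling cells, stood at 13.7 CPM in run 2, 200 CPM in run 1 PEP-619WW and 162 CPM in run 1 PEP-WT. Single-lineage members had 0 UMIs of it, at least 46.2-fold below the 188 CPM of run 1. *Top2a*, which untangles DNA, stood at 19.7, 156 and 152 CPM, and *Stmn1* at 50.5, 176 and 236 CPM. In the *Cd3e* barcodes of the same libraries, where 11.9% of 11339 tested genes were higher and 4.79% lower, 0 of 19 proliferation genes were called, with *Mki67* at 266 CPM in run 2 and 234 CPM in run 1 PEP-619WW.

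B-1 and T-bet lists were small and mixed. Of 8 B-1 genes, 2 were higher and 2 lower, and 0 and 3 of 7 in single-lineage barcodes. *Bhlhe41*, a B-1 cell transcription factor, stood at 7.70, 51.6 and 29.5 CPM, while the higher genes *Ahnak* and *S100a6* stood at 872 and 2612 CPM in the other run 2 PEP-619WW barcodes, above the 365 and 814 CPM in members. Of 9 genes of T-bet and memory B cells, 4 were higher and 3 lower, and 2 and 3 in single-lineage barcodes. The higher ones were *Itgam* at 137, 19.7 and 10.2 CPM, *Pdcd1lg2* at 32.5, 7.78 and 12.7 CPM, *Itgax* at 18.8, 3.52 and 3.29 CPM, and *Cd80*. In single-lineage members *Itgam* (17.6 against 3.70 CPM) and *Pdcd1lg2* (33.9 against 8.45 CPM) were still higher, while *Itgax* and *Cd80* had 2 and 1 UMIs and were not called. The lower ones were *Cxcr3* at 5.14, 44.4 and 22.7 CPM, *Fcrl5* at 1.71, 17.0 and 22.6 CPM, and *Zbtb32* at 0, 9.94 and 7.54 CPM.

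**Figure D3:**
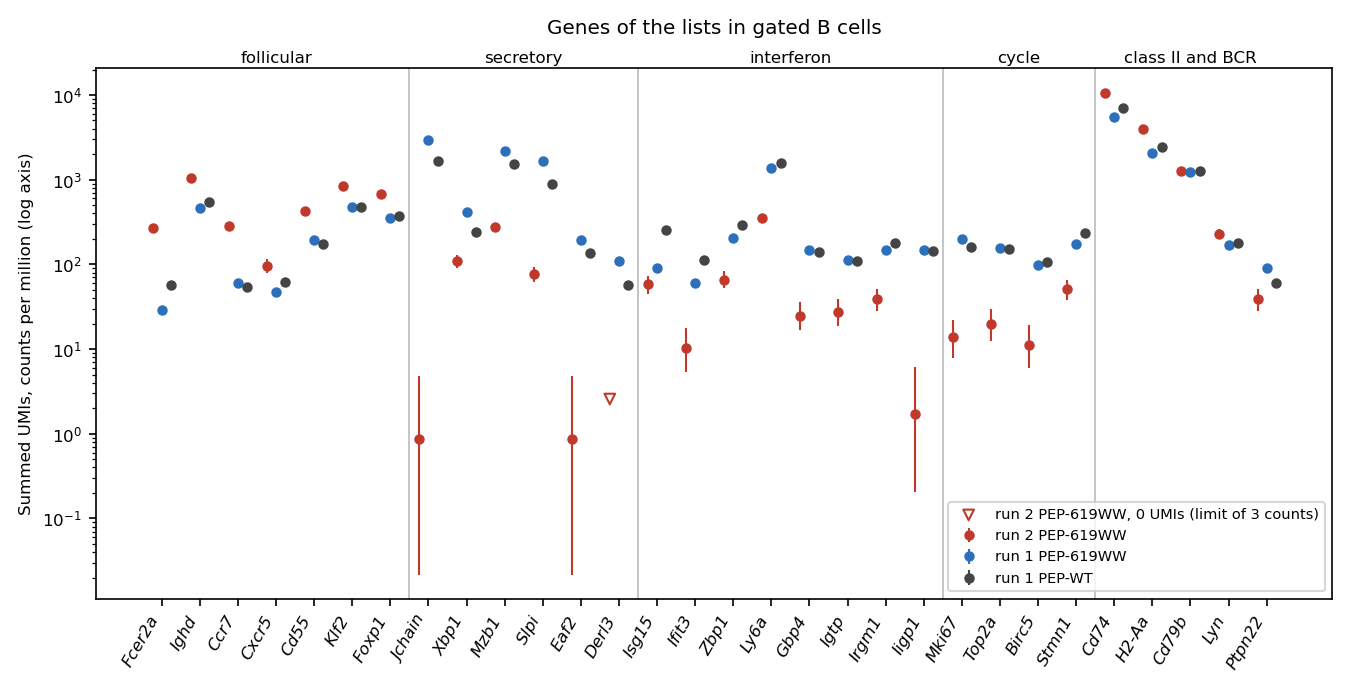
Summed UMIs of gated B cells as CPM (y axis, log scale) for genes of 5 groups in run 2 PEP-619WW, run 1 PEP-619WW and run 1 PEP-WT, with exact 95% Poisson intervals and open triangles at the limit of 3 counts where 0 UMIs were found. The run 2 points lie above both run 1 points for *Fcer2a* (271 against 28.8 and 57.0 CPM) and below both for the secretory, interferon and cycle genes shown.

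Interferon genes that were called against run 1 PEP-619WW were lower in run 2, with 1 exception. Of 24 tested interferon-stimulated genes, 9 were lower, 0 higher and 15 neither (median -0.67), where 6.49% of all tested genes were lower, and 17 were lower and 0 higher than in run 1 PEP-WT (median -1.63), where 5.91% of all were lower. In single-lineage barcodes 14 were lower (median -1.34) against PEP-619WW, where 5.94% of all tested genes were lower, and 20 against PEP-WT. The share of all genes called against PEP-WT in these barcodes was not tabulated, so the 20 have no background. Of 12 genes that interferon gamma raises, most of them guanylate-binding proteins and immunity-related GTPases that attack vacuoles of microbes, 9 were lower and 1 higher (median -1.67), and 9 and 0 in single-lineage barcodes (median -2.15). The exception was *Cxcl10*, a chemokine, at 29.1, 11.4 and 30.7 CPM, which had 1 UMI in single-lineage members. In *Cd3e* barcodes 7 of 24 and 5 of 12 genes were lower too, against 4.79% of all genes there, with medians of -0.57 and -0.92.

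*Iigp1*, an immunity-related GTPase, had 2 UMIs in run 2 (1.71 CPM) against 146 and 145 CPM in run 1, a log2 ratio of -6.41 (-9.46 to -4.56). At 1000 UMIs it was found in 0.236% of members and in 13.4% and 12.9% of run 1 B cells. *Cd3e* barcodes had it in 4.29% (run 2), 9.5% (run 1 PEP-619WW) and 11.6% (run 1 PEP-WT), and T cells can express the gene themselves. *Gbp4* stood at 24.8 CPM in run 2, 148 CPM in run 1 PEP-619WW and 141 CPM in run 1 PEP-WT, *Igtp* at 27.4, 113 and 110 CPM, and *Irgm1* at 38.5, 150 and 180 CPM. The run 1 genotypes lay near each other for these genes. *Zbp1*, a sensor of viral nucleic acid, stood at 65.9, 204 and 293 CPM, and *Ifit3*, which binds viral RNA complexes, at 10.3, 60.9 and 114 CPM. *Isg15*, a ubiquitin-like protein, stood at 58.2 CPM in run 2, 89.4 CPM in run 1 PEP-619WW and 253 CPM in run 1 PEP-WT. It was called only against PEP-WT in all members and against both in single-lineage barcodes. *Ly6a* stood at 356, 1357 and 1557 CPM and *Ly6c2*, whose reads can be shared with its paralog, at 182, 1281 and 1207 CPM.

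Promoters of the interferon genes were read from RefSeq (GRCm38.p6), from 250 bases before to 50 after the start, and searched on both strands for the letters GAAA, any 2 bases and GAAA again, the core of the interferon-stimulated response element. Of 27025 genes with a promoter in the table, 1079 held a match (3.99%). A match was found for 11 of 18 interferon-stimulated genes with a promoter (61.1%) and 8 of 10 interferon gamma genes (80.0%). By their call in single-lineage barcodes, it was found for 13 of 17 genes of these lists called lower (76.5%) and 6 of 11 tested and not called (54.5%). Of the follicular, class II, proliferation and NF-kB lists, 0 of 4, 0 of 7, 0 of 17 and 0 of 12 genes held one, and of the secretory list 1 of 10. The match is a description of the letters and not of binding. Sequences are shown for a selection of the 13 genes called lower in single-lineage barcodes that held a match. Those shown were called lower in all members too, and they are not every gene that met these conditions. A gene had to be called lower and hold a match to be shown, so that both occur together here is fixed by the choice. Each stretch is on the strand of its gene, with the matched letters in capitals. In *Bst2* and *Socs1* more than 1 match overlapped, and *Ifit3* held a further match outside the stretch shown.
Ifit3, chr19:34583382-34583441, + strand: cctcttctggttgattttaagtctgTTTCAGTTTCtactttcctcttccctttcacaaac
Igtp, chr11:58199496-58199555, + strand: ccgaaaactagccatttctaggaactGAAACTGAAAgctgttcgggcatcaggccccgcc
Gbp7, chr3:142530258-142530317, + strand: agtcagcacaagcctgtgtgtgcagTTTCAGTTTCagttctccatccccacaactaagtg
Ifi213, chr1:173599311-173599370, - strand: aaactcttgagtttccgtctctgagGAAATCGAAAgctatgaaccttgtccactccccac
Bst2, chr8:71537562-71537621, - strand: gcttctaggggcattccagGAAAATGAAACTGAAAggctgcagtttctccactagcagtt
Socs1, chr16:10785579-10785638, - strand: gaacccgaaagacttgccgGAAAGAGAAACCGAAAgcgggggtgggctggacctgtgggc

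The match nearest to the start site began 122 bases before the start site in *Ifit3*, 34 in *Igtp*, 53 in *Gbp7*, 73 in *Ifi213*, 124 in *Bst2* and 77 in *Socs1*. *Gbp7* stood at 41.1 CPM in run 2, 128 CPM in run 1 PEP-619WW and 143 CPM in run 1 PEP-WT, and *Ifi213* at 38.5, 104 and 173 CPM. *Bst2*, which tethers budding virus, stood at 151, 316 and 384 CPM, and *Socs1*, an inhibitor of interferon signaling, at 31.7, 64.3 and 108 CPM. For these 4 genes run 2 was the lowest of the 3 libraries.

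The antigen presentation genes were counted as class II and class I lists. Of 10 class II genes, 1 was higher, a share below the 13.0% of all tested genes, and 0 were lower in all members with a median of 0.74, and 0 were called in single-lineage barcodes with a median of 0.66. *Cd74*, the invariant chain, stood at 10670 CPM in run 2, 5464 CPM in run 1 PEP-619WW and 7074 CPM in run 1 PEP-WT, a log2 ratio of 0.97 just under the limit. *H2-Aa* stood at 3960, 2048 and 2452 CPM. In *Cd3e* barcodes 10 of 10 class II genes were higher, with a median of 2.77, where 11.9% of all tested genes were higher. *Cd74* stood there at 3120 CPM in run 2 and 436 CPM in run 1 PEP-619WW. Whether that RNA was free, came from shared droplets or was the cells' own was not tested, nor was its part in the result. Of 10 class I genes, 3 were lower, against 6.49% of all tested genes, and 0 higher (median -0.75), with the same counts in single-lineage barcodes. These were *Psmb9*, a subunit of the immunoproteasome, at 217, 515 and 705 CPM, the peptide transporter *Tap1* at 140, 292 and 283 CPM, and the regulator *Nlrc5* at 24.0, 66.8 and 73.1 CPM. The heavy chain *H2-K1* stood at 1554, 2647 and 2691 CPM with a log2 ratio of -0.77.

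Genes of B cell receptor signaling gave few calls. Of 12, 1 was higher, a share below the 13.0% of all tested genes, and 0 lower with a median of 0.54, and in single-lineage barcodes again 1 with a median of 0.61. This was *Malt1*, a protease on the path from the receptor to NF-kB, at 290 CPM in run 2, 128 CPM in run 1 PEP-619WW and 137 CPM in run 1 PEP-WT. The kinase genes *Lyn*, *Syk* and *Btk* had log2 ratios of 0.45, 0.59 and 0.43. *Ptpn22* itself (GRCm38 chr3:103859795-103912247), which encodes PEP, was 1 of 10 inhibitors of the receptor, of which 3 were higher and *Ptpn22* alone lower (2 of 9 and 1 in single-lineage barcodes). It stood at 38.5 CPM (28.1 to 51.5) in run 2, 90.2 CPM in run 1 PEP-619WW and 59.4 CPM in run 1 PEP-WT. The log2 ratio was -1.23 (-1.69 to -0.80) against the same genotype and -0.63 against PEP-WT, where it was not called. In single-lineage barcodes it was 25.7, 95.3 and 58.6 CPM, with a log2 ratio of -1.89, and was called against both. The R619W change replaces bases within the gene, so its level does not check the genotype label. *Fcgr2b*, *Lilrb4a* and *Pirb*, inhibitory receptors shared with myeloid cells, were higher in all members, at 199, 105 and 84.7 CPM, and stood at 475, 330 and 167 CPM in the other run 2 PEP-619WW barcodes. In single-lineage members *Fcgr2b* was at 93.4 CPM and not called.

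Genes of activation and NF-kB stood higher. Of 19, 14 were higher and 1 lower than in run 1 PEP-619WW with a median of 1.42, and 12 and 1 in single-lineage barcodes with a median of 1.14. Against run 1 PEP-WT 7 were higher and 1 lower. Among single-lineage barcodes with an *Ighd* UMI, 6 were higher and 1 lower than in run 1 PEP-619WW, with a median of 0.59. Of all genes tested in that set, 5.49% were higher and 4.22% lower. *Cd69*, an early activation receptor that retains lymphocytes in tissue, stood at 340 CPM in run 2, 141 CPM in run 1 PEP-619WW and 179 CPM in run 1 PEP-WT, and at 481 CPM in single-lineage members. *Rel*, an NF-kB subunit of B cells, stood at 237, 88.9 and 102 CPM and *Nfkb2* at 83.9, 24.7 and 44.2 CPM. *Gpr183*, which positions B cells in the follicle, stood at 145, 52.0 and 61.1 CPM. *Ccl4*, a chemokine, stood at 439 CPM in all members and 75.8 CPM in single-lineage ones, against 24.0 and 14.2 CPM in the same sets of run 1 PEP-619WW. The lower gene was *Myc*, the growth factor-induced transcription factor, at 7.70, 46.4 and 77.1 CPM, a log2 ratio of -2.59 (-3.72 to -1.66).

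Immediate early genes, which respond to stimulation and to tissue handling, were in part higher. Of 16, 7 were higher and 0 lower with a median of 0.87, and 4 in single-lineage barcodes with a median of 0.50. In *Cd3e* barcodes 5 of 16 were higher and 0 lower, where 11.9% of all tested genes were higher. *Klf6* stood at 263 CPM in run 2, 81.9 CPM in run 1 PEP-619WW and 76.8 CPM in run 1 PEP-WT. *Fos* had a log2 ratio of 0.29 and *Jun* of 0.76, and neither was called. *Egr1* was higher in all members, at 116, 55.7 and 52.6 CPM, and at 42.0 CPM in single-lineage members, where it was not called. Of 10 heat shock genes, 2 were higher and 0 lower in both sets: the near-identical and inducible *Hspa1a*, at 122, 0.556 and 1.59 CPM, and *Hspa1b*, at 154, 1.48 and 2.80 CPM. They were carried by few members, 6.88% and 10.1%, and stood at 172 and 200 CPM in *Cd3e* barcodes of run 2 against 1.19 and 2.02 CPM in those of run 1 PEP-619WW.

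Receptors for homing and for cytokines gave a few calls each, where 13.0% of all tested genes were higher and 6.49% lower. Of 16 homing and adhesion genes, 6 were higher and 1 lower (4 and 1 in single-lineage barcodes), among them *Cd44*, a hyaluronan receptor, at 216, 79.2 and 56.2 CPM, which was at 81.2 CPM and not called in single-lineage members. Of 13 survival and cytokine receptors, 3 were higher and 0 lower, in all members and in single-lineage barcodes. *Ifngr1*, a chain of the interferon gamma receptor, stood at 193, 41.9 and 47.6 CPM, and in single-lineage barcodes at 106, 34.6 and 41.8 CPM, a log2 ratio of 1.61 there. *Tnfrsf13c*, the BAFF receptor on which B cell survival rests, stood at 137, 179 and 165 CPM and was not called. Of 9 Toll-like receptor genes, 2 were higher and 0 lower with a median of 0.48, and 1 and 1 in single-lineage barcodes with a median of -0.14. The higher ones were *Tlr2* and *Tlr4*, at 28.3 and 22.3 CPM against 46.5 and 31.4 CPM in the other run 2 barcodes of that library. Of 9 tested cytokine and checkpoint genes, 2 were higher in all members and 0 in single-lineage barcodes. *Il10* had 1 UMI.

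Genes of glycolysis and hypoxia were higher in 8 of 14 tested genes, with a median of 1.09, and in 3 of 14 in single-lineage barcodes, with a median of 0.43. Those 3 were the glucose transporter *Slc2a1* at 42.0 CPM against 11.4 CPM in run 1 PEP-619WW, the mitophagy gene *Bnip3* at 43.3 against 6.04 CPM and the collagen hydroxylase subunit *P4ha1* at 24.4 against 6.49 CPM. In *Cd3e* barcodes 8 of 15 were higher, against 11.9% of all genes there. Of 3 metallothionein genes, 1 was higher and 1 lower, and 0 and 2 in single-lineage barcodes.

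For the 15 B cell identity genes, 1 was higher, a share below the 13.0% of all tested genes, and 0 lower with a median of 0.28, which turned to -0.09 with TMM factors, and 5 were higher in single-lineage barcodes, of which 0 remained when an *Ighd* UMI was also asked for. *Fcmr*, the IgM Fc receptor, stood at 501, 243 and 308 CPM, and *Bank1*, an adaptor of the B cell receptor, at 513, 285 and 364 CPM. *Pax5* stood at 387, 232 and 234 CPM.

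**Figure D4:**
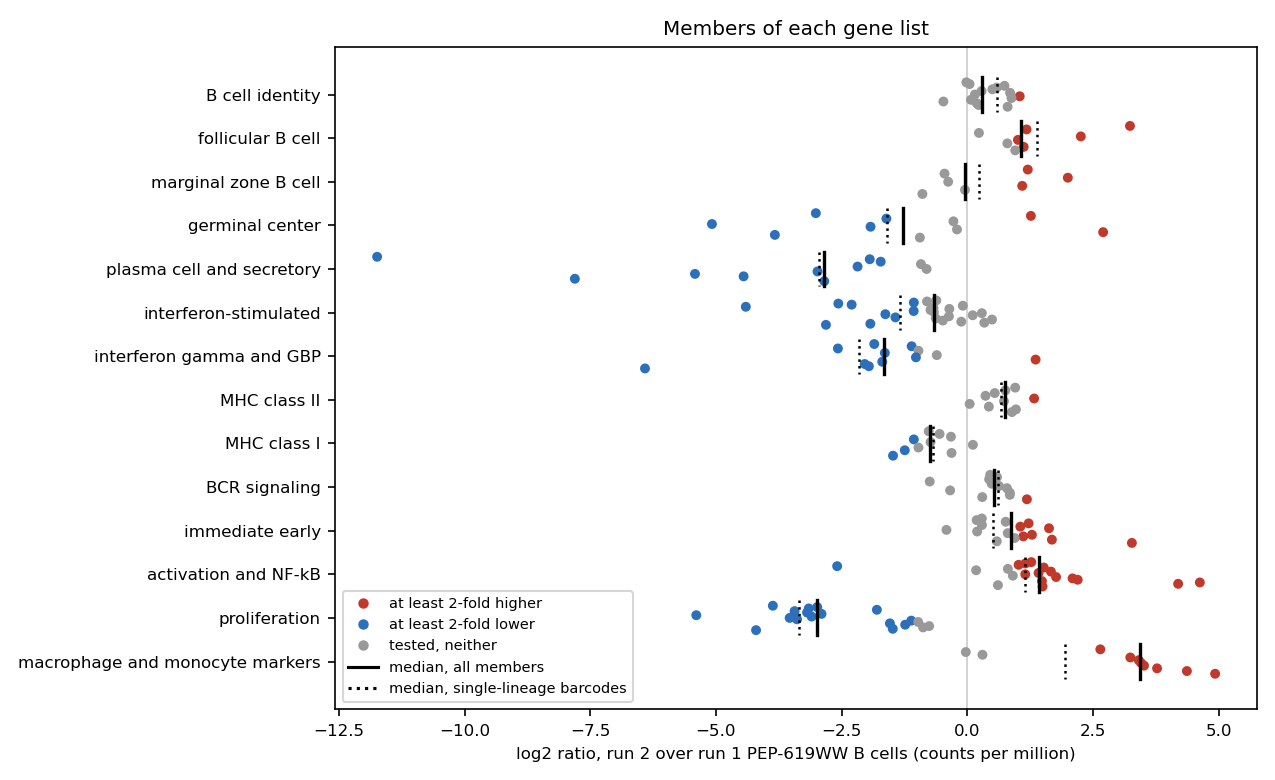
Log2 ratio of CPM, run 2 over run 1 PEP-619WW B cells (x axis), for each tested gene of 14 lists, colored by call, with the median in all members (solid line) and in single-lineage barcodes (dotted line), and genes with 0 UMIs in 1 library at their bound. The medians of the secretory (-2.85) and proliferation (-2.99) lists lie to the left and that of the follicular list (1.06) to the right of 0.

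Beyond the lists, the genes with the largest ratios among those at least as high in members as in the other run 2 PEP-619WW barcodes began with 4 Y-linked genes. *Ddx3y* stood at 110 CPM and *Eif2s3y* at 60.8 CPM, with 0 UMIs in both run 1 libraries, at least 596-fold and 328-fold above run 1 PEP-619WW. *Kdm5d* stood at 34.2 CPM and *Uty* at 28.2 CPM. After *Fcer2a* and *Ccr7* followed *AI504432*, *Mfsd6*, *Tgif1*, *Gpr137c*, *Spsb2* and *Xylt1*, with log2 ratios of 1.81 to 1.95. In single-lineage members *Mfsd6* and *Spsb2* were still called. They stood there at 18.96 and 17.6 CPM, below the 23.45 and 22.43 CPM of the other barcodes, and in only 3.47% and 3.23% of members. With an *Ighd* UMI also asked for, *Mfsd6* was not called. *Tgif1*, a repressor in TGF-beta signaling, stood at 96.7, 25.9 and 29.4 CPM. *Xylt1*, which starts sugar chains on proteoglycans, stood at 66.8, 19.0 and 16.7 CPM. *Gpr137c* was at 24.0 CPM in members and 1.34 CPM in the other barcodes.

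Of the higher genes, 933 of 1415 stood lower in members than in the other run 2 PEP-619WW barcodes. The same share over all tested genes was not tabulated, so the count is not read as a trait of the higher genes. The 8 largest of the 933 were *Spp1*, *Ccl7*, *Dab2*, *Hspa1a*, *C3ar1*, *Ccl2*, *Arg1* and *Hspa1b*, of which *Spp1*, *Ccl7*, *Ccl2*, *Arg1*, *Dab2* and *C3ar1* are known from macrophages. *Spp1*, osteopontin, stood at 332 CPM in members, 0.185 CPM (3 UMIs) in run 1 PEP-619WW and 0.496 CPM in run 1 PEP-WT, and at 1054 CPM in the other run 2 barcodes. In single-lineage members it was at 54.2 CPM. The part of free RNA and of shared droplets in these genes was not tested.

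The lowest genes were *Ighg2c*, *Jchain*, *Xist*, *Ighg2b*, *Ighg3*, *Hbb-bs*, *Ighg1*, *Eaf2*, *Tent5c*, *Igha*, *Iigp1* and *Ngp*. *Xist*, which silences the inactive X chromosome, had 1 UMI in members (0.856 CPM) against 1049 and 1078 CPM in run 1. *Eaf2* and *Tent5c*, both known from antibody-secreting cells, had 1 UMI each against 192 and 123 CPM in run 1 PEP-619WW. *Hbb-bs*, a beta globin whose reads its paralog can share, had 1 UMI against 240 and 2369 CPM, and *Ngp*, a neutrophil granule gene, had 0 against 175 and 45.6 CPM. These last 2 genes belong to red cells and neutrophils. In single-lineage barcodes *Ngp* was at 8.98 and 2.39 CPM in run 1, so that its bound went from at least 68.0-fold to at least 2.21-fold lower than in PEP-619WW, and it was not called against PEP-WT.

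Markers of other cell types differed between the libraries. The macrophage list summed to 3564 CPM in run 2, 994 CPM in run 1 PEP-619WW and 852 CPM in run 1 PEP-WT, with 8 of 10 tested genes higher and 0 of 11 at 0 UMIs in run 2. The NK list summed to 277, 41.0 and 59.9 CPM, and the T cell list to 155, 79.8 and 112 CPM, with none of their genes at 0. The neutrophil list ran the other way, at 761, 2739 and 1292 CPM, as did the erythroid list, at 3.42, 408 and 3902 CPM with 3 of 6 genes at 0. Dendritic cell genes summed to 65.1, 12.3 and 13.6 CPM, stromal and endothelial genes to 115, 80.5 and 80.8 CPM, and epithelial genes to 3.42, 25.5 and 20.3 CPM. Hepatocyte genes, looked at because the labels name liver although the sort kept CD45+ cells, had 0 UMIs in members, and melanocyte genes had 18 UMIs (15.4 CPM) against 11 and 19 UMIs (0.679 and 0.673 CPM) in run 1. In single-lineage barcodes the macrophage list was still higher in 5 of 7 tested genes, with *Lyz2* at 152 CPM against 39.2 CPM.

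Leiden clustering of the 466 members, without immunoglobulin and gate genes among the features, gave 4 clusters, whose genes are given as a description. Cluster 1 held 333 members (71.5%) with a median of 1721 UMIs and was led by *Cr2*, *Fcer2a*, *Pgap1* and *H2-Oa*. From cluster 1 to cluster 4, *Fcer2a* stood at 437, 165, 81.2 and 254 CPM and *Ighd* at 1580, 1013, 327 and 816 CPM. The shares of members with a UMI lay closer together, at 43.5% in cluster 1 and 33.8% in the rest for *Fcer2a* and at 84.1 and 77.4% for *Ighd*. Cluster 2 held 65 members (13.9%) and was led by *Akap12*, *Fam129c*, *Pafah1b3* and *Vpreb3*. *Vpreb3*, whose protein is related to the VpreB chains of the surrogate light chain, stood at 832 CPM there and 206 CPM in the rest, *Cd24a*, a surface protein of young B cells, at 463 and 174 CPM, and *Iglc1* at 1860 and 469 CPM. The rest is summed over UMIs and so weighted to the deeper cluster 3, and by members *Vpreb3* was found in 58.5% of cluster 2 and 34.2% of the rest. Cluster 2 also had less *Cr2* (102 against 185 CPM in cluster 1) and *Fcer2a* (165 against 437 CPM), and a heat shock list at 5149 CPM, against 2915 CPM in cluster 1.

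Cluster 3 held 55 members (11.8%), among them the PEP-WT member, with a median of 7092 UMIs, and was led by *Cxcl3*, *Emilin2*, *Slpi*, *Cd300c2* and *Chil3*. *Lyz2* stood at 5356 CPM there and *S100a8* at 766 CPM, while *Cd79b* stood at 434 CPM against 1715 CPM in cluster 1. Cluster 4 held 13 members (2.79%) with a median of 4294 UMIs and was led by *Klrb1c*, *Ctla2a*, *Gzma*, *Prf1* and *Nkg7*, genes of NK and cytotoxic T cells, with *Cd79b* at 889 CPM. Clusters 3 and 4 were led by genes of other lineages beside the B cell genes and are left unnamed. No doublet caller was run, and doublets were not told apart from free RNA.

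**Figure D5:**
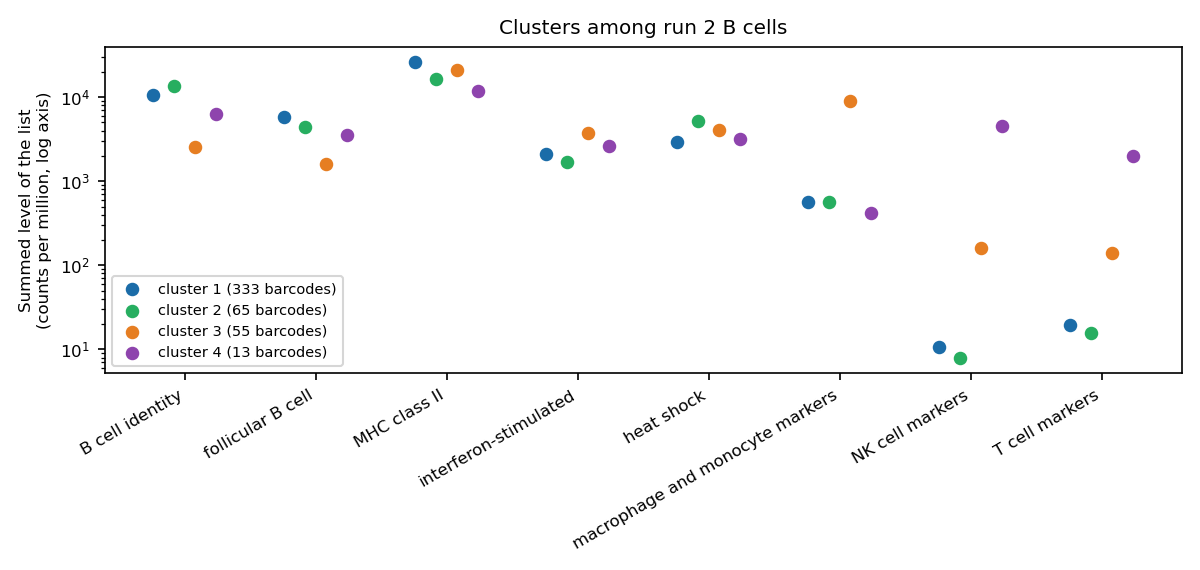
Summed CPM (y axis, log scale) of 8 gene lists in each of the 4 clusters of the 466 run 2 members. Cluster 3 has the highest macrophage list (8966 CPM, against 564 CPM in cluster 1) and cluster 4 the highest NK list (4500 CPM, against 10.6 CPM).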

How the data were processed

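Live CD45+ cells were profiled with the 10x Genomics 3' assay. The authors counted UMIs with Cell Ranger, and the deposited files hold these raw counts, whole numbers per gene and barcode without normalization. The submitters' processing notes name Cell Ranger 6.0.0 and mm10. Of 32285 gene identifiers, 32158 were matched to a symbol. The barcode numbers of run 2, not of run 1, are those of the cells in the study's methods.

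The members, gene lists and alternatives were chosen with earlier results of these data known, and 2 alternatives, the single-lineage barcodes with and without an *Ighd* UMI, were added after the data had been seen. Named genes were the 12 highest at or above the level of other run 2 barcodes, the 8 highest below it and the 12 lowest, each past 2-fold against both run 1 libraries and in at least 5% of barcodes, and list members. Immunoglobulin variable and predicted genes were left out, 11, 3 and 19 of them. Genes of the clusters, and list genes beyond the 2 to 4 with the largest difference or that define a list (such as *Egr1* and *Cd9*, whose call changed in single-lineage barcodes), were named after their values were seen.

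Summed UMIs over gated barcodes were scaled to 1000000 (CPM). Intervals were exact at 95% (Poisson for sums, conditional binomial for ratios, Clopper-Pearson for shares). A sum or share of 0 was given a limit of 3 counts. Shares used barcodes thinned to 1000 UMIs (seed 1). Clusters used counts per 10000 as ln(1 + x), 2000 variable genes, 15 principal components, 15 neighbors and Leiden resolution 0.5. No filter on barcodes and no doublet caller were applied. The calculations were tested on simulated data. Clustering ran in scanpy 1.11.5 with the Leiden method of igraph 0.11.9, and TMM factors came from edgeR 4.0.16 in R 4.3.3. All else was computed in python 3.11.15 with scipy 1.17.1, numpy 2.4.6 and pandas 2.3.3. Total UMIs of members were 1168304, against 16195432 and 28244917 in the run 1 gates, so that run 2 sums set the precision. Single values of a few list genes are not reported here.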

Additional observations from a re-analysis of the deposited data

How the results depend on the processing

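With 1 pooled library per genotype and run, no library could be left out and no test was made. No paired analysis was possible because each group had 1 library and no result came from a test. The 465 members became 265 with at least 2 UMIs of each gate gene and 295 without any UMI of 11 genes of other lineages. The 1415 higher and 706 lower genes became 582 and 416 without those UMIs, 404 and 313 without barcodes above 2 times the median UMIs, 454 and 277 after thinning, 532 and 409 in single-lineage barcodes with an *Ighd* UMI, and 754 and 1267 with TMM factors. Fewer UMIs leave fewer genes callable in the smaller sets, and the cause was otherwise not tested. The *Ighd* share of 64.9% became 82.2% without thinning. Clusters numbered 10 at resolution 1.0, and the largest, 71.5% of members, held 17.4% then, 76.4% with immunoglobulin genes kept and 78.8% with 30 principal components. Medians above 1 in size turned for the NK list (-0.046 in single-lineage barcodes), the macrophage list (-0.21 without UMIs of the 11 genes) and the neutrophil list (1.42 in single-lineage barcodes and 1.12 in those with *Ighd*), whose own genes chose the barcodes left out. The dendritic cell median of 4.86 rested on 2 tested genes and became -0.27, from 1 gene, with *Ighd*. Other medians also changed sign under at least 1 setting: marginal zone, Toll-like receptor, T cell, T-bet, B-1, metallothionein and, with TMM factors, B cell identity, and the cause was not tested. With *Ighd*, 12 of 19 proliferation genes and 15 of 24 and 10 of 12 interferon genes were lower, while higher genes of activation and NF-kB numbered 6 of 19, lower germinal center genes 1 of 9 and higher B cell identity genes 0 of 15. Of all 9684 genes tested with *Ighd*, 5.49% were higher and 4.22% lower. Over pairs of a setting and a gene, for the named highest and lowest genes and some list genes, 469 log2 ratios stayed within their counting interval or moved by less than 0.1. A further 229 moved further, and 0 called ones changed sign. Of the 469, 52 came from a limit of 100 UMIs and 57 from no limit on low counts, settings that leave each ratio unchanged.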
